A study of Mus musculus with 4 samples.

Results

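Neutrophil primary granule genes are described here in hematopoietic stem and progenitor cells (HSPCs) after deletion of Chaf1b. This gene encodes CHAF1B, a subunit of the histone chaperone CAF-1. Primary, or azurophil, granules are the first granules made in the neutrophil lineage, at the promyelocyte stage. They store myeloperoxidase and a set of neutrophil serine proteases. Cathepsin C activates these proteases by removing a dipeptide from the proenzyme, serpins hold them in check, and cystatin F inhibits cathepsin C. The genes of myeloperoxidase and of the serine proteases are switched on in granulocyte-macrophage progenitors. They are switched off again as the cells mature, when genes of secondary and tertiary granules take over. The 10 genes were chosen by name and are Mpo, Elane, Prtn3, Ctsg, Prss57, Ctsc, Serpinb1a, Cst7, Ms4a3 and Fcnb. All 10 were found among the 43629 gene identifiers of the count tables, and all 10 were among the 16500 genes that passed the filter on low counts. Not all of them encode granule contents, since SERPINB1A is a cytosolic inhibitor and MS4A3 a membrane protein of granulocyte-macrophage progenitors.

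The HSPCs were CD117+ cells of C57Bl/6 mice homozygous for a floxed Chaf1b allele, Chaf1b (fl/fl), so the controls carried the floxed allele as well. In culture with SCF, IL3, IL6 and LDL they were spinfected with the retroviral vector MIGR1-Cre, which gave Chaf1b (-/-) cells (dChaf1b, 2 libraries), or with empty MIGR1 (2 libraries). eGFP-positive cells were sorted after 48 hours, so that both groups had been exposed to virus, eGFP and sorting and differed in Cre as well as in Chaf1b. The study's methods describe young adult mice of both sexes, and the labels give neither the age nor the sex behind a library, nor whether it came from 1 mouse or a pool. Each value rests on between 18468637 and 25409926 reads counted on genes per library, and levels are given as CPM, the count scaled to 1000000 counts on genes, unless stated otherwise. Intervals on shares cover counting error only, because the reads carry no molecular identifiers.

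The deletion was visible in both dChaf1b libraries. Chaf1b (ENSMUSG00000022945) had 80.3 and 57.9 CPM in the MIGR1 libraries and 16.1 and 17.9 CPM in the dChaf1b libraries. Its RNA thus remained at 0.249 of the control level in the fit, and CHAF1B protein was not measured in these libraries. Chaf1b was the one gene called lower, at -2.01 on the log2 scale with a standard error of 0.25 and an adjusted p of 0.0330. This and every further log2 fold change and adjusted p comes from edgeR's quasi-likelihood test over all 16500 genes after TMM normalization, with Benjamini-Hochberg adjustment. The library dChaf1b replicate 1 stood apart from the other 3. It held 7905 counts of Xist, the RNA of the inactive X chromosome, against 23 to 33 in the others, and 3 counts on Y-linked genes against 5805 to 7774. The summed level of 10 interferon-response genes was 1165 CPM in this library and between 101 and 134 CPM in the others, with Isg15, Oasl1 and Rsad2 at the lowest p of that list (adjusted p = 0.211 to 0.229). Results for the primary granule genes are therefore also given without it. All 8 HSPC markers, among them Kit, Cd34 and Flt3, passed the filter, with a summed level between 353 and 523 CPM. The 14 neutrophil genes listed under secondary and tertiary granules summed to between 51737 and 78080 CPM, and their transcripts were present in every library. A large part of this sum came from S100a8 (10712 to 14653 CPM) and S100a9 (15153 to 23316 CPM). In bulk RNA, fewer cells of one type and less RNA per cell cannot be told apart.

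The primary granule genes had lower mean levels after Chaf1b deletion, but none of them was called. All 10 had a log2 fold change below 0, as did 52.5% of all genes tested, and their median was -0.36 against -0.03 over all genes. Elane (-1.0) and Prss57 (-0.95) had the largest differences and Mpo (-0.08) the smallest. The deleted libraries were unlike each other. dChaf1b replicate 2 was the lowest of the 4 libraries for all 10 genes, a position it held for 16.8% of all genes tested, while dChaf1b replicate 1 lay within the range of the controls for Mpo, Prtn3, Ms4a3, Fcnb and Ctsc in CPM and above it for Ctsg. After TMM normalization dChaf1b replicate 1 was above both controls for Mpo, Prtn3 and Ms4a3 as well. dChaf1b replicate 2 also had the fewest counts on genes (18468637) and the largest share of uniquely aligned reads outside genes, 48.3% against 42.3% and 42.1% in the controls and 35.8% in dChaf1b replicate 1, and the part of this in the results was not tested. Genes called at a change of at least 1.5-fold and an adjusted p under 0.05 made up 0.376% of the genes tested in either direction and 0.00606% on the lower side. None of the 10 primary granule genes was among them. At an unadjusted p under 0.05, 2 of the 10 were lower (Elane and Prss57), against 3.1% of all genes on that side and 12.3% in either direction. The median log2 fold change of the 10 genes was -0.74 without dChaf1b replicate 1 and -0.17 without dChaf1b replicate 2. Likewise 0 of the 10 were called by edgeR's exact test, its likelihood ratio test or DESeq2, which called 0.224%, 0.242% and 0.206% of all genes lower, and each of these gave the same 2 genes an unadjusted p under 0.05.

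Together, the 10 genes held 0.907% of the counts on genes in MIGR1 replicate 1 (exact 95% interval 0.903 to 0.911%) and 0.904% in MIGR1 replicate 2 (0.900 to 0.908%). In the deleted libraries they held 0.828% (0.825 to 0.832%) and 0.548% (0.544 to 0.551%). On this scale both deleted libraries were below the controls, with a larger distance between the deleted libraries themselves than between either control and dChaf1b replicate 1. Of all uniquely aligned reads, the 10 genes held 0.505% in each MIGR1 library, 0.509% in dChaf1b replicate 1 and 0.271% in dChaf1b replicate 2. With this denominator dChaf1b replicate 1 was above both controls, and the lower share was seen in dChaf1b replicate 2 alone. Within this total the groups did not overlap in the parts of Elane, Mpo, Ctsg and Prss57, and they overlapped in the parts of the other genes. Such parts depend on each other, since a lower part for Elane raises the others. Elane contributed 19.2% and 26.2% of the primary granule counts in the MIGR1 libraries, against 14.8% and 13.7% in the dChaf1b libraries. The part of Mpo was 37.7% and 29.7% in the controls, against 40.6% and 40.9% with Chaf1b deleted. Between the controls, the part of Mpo differed by more than between MIGR1 replicate 1 and either deleted library. Ctsg contributed 12.9% and 12.4% in the controls, against 14.6% and 13.8% with Chaf1b deleted. Prss57 contributed 0.654% and 0.775% in the controls, against 0.487% and 0.442%. In CPM the groups overlapped for Mpo and Ctsg. Such parts were not computed for other genes, so no share over all genes stands beside them. In CPM both deleted libraries were below both controls for 22.9% of all genes and above them for 21.4%.

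**Figure D1:**
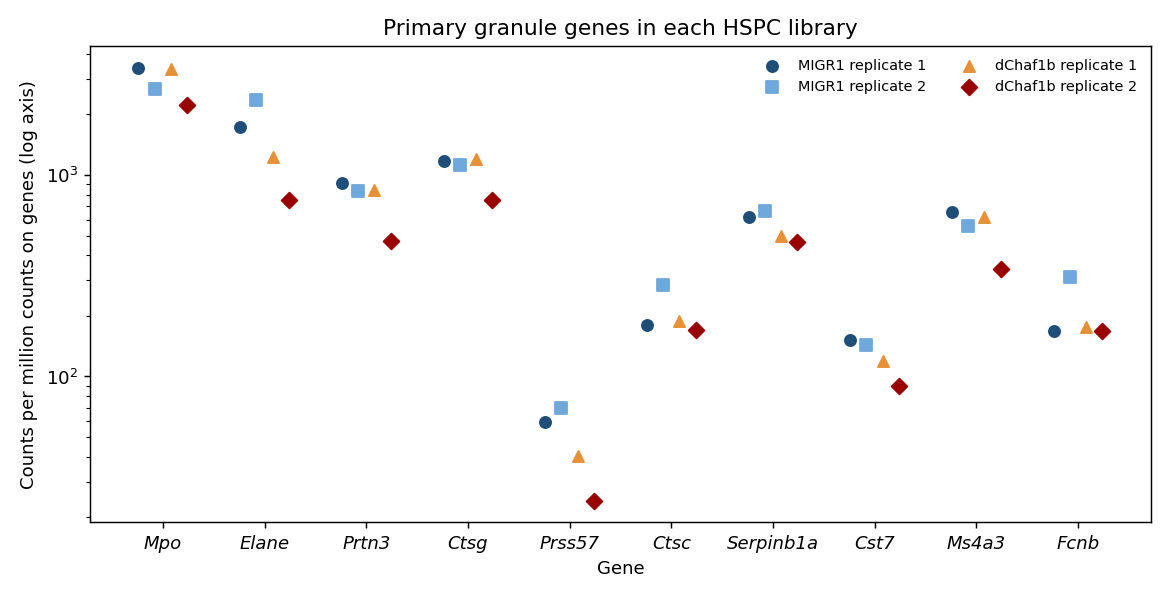
Level of each primary granule gene (x axis) in CPM (y axis, log scale), with 1 point for each of the 4 libraries. The red diamonds of dChaf1b replicate 2 are the lowest point for all 10 genes, and for Elane, Prss57, Serpinb1a and Cst7 both dChaf1b libraries lie below both MIGR1 libraries.

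Where the genes lie and what stands before them is given first for the serine proteases, because their positions and promoters group them. Coordinates of genes are those of mm9 (NCBIM37). Prss57 (79244219 to 79253706, minus strand), Prtn3 (79337221 to 79345919, plus strand) and Elane (79349057 to 79350961, plus strand) share a stretch of chromosome 10, with 83514 bases between Prss57 and Prtn3 and 3137 bases between Prtn3 and Elane. Ctsg lies on chromosome 14 (56718718 to 56721411, minus strand), beside mast cell protease and granzyme genes. RefSeq promoter sequences of 300 bases (250 before the start site and 50 after it, GRCm38.p6) were at hand for 8 of the 10 genes, not for Serpinb1a and Prss57. The letters AGGAAGT, the core bound by the ETS factor PU.1, were searched on both strands after the sequences had been looked at. They occur in 7 of the 8 promoters, that of Ms4a3 being the exception, and in 9.35% of the 32851 promoters of the table. The shorter GGAAGT, contained in AGGAAGT, occurs in 8 of the 8 and in 23.8% of all promoters. Elane and Prtn3 are shown in full from the region nearest the start, because these neighbours carry the letters AGGAAGT, then the MYB core CAACNG and then a TATAA box at like distances. In Elane they begin at positions -84, -51 and -31 from the start site, and in Prtn3 at -94, -56 and -32. All 3 motifs on the strand of the gene are found in 0.207% of all promoters. The motifs are in capitals.
Elane, chr10:79886202-79886361, plus strand: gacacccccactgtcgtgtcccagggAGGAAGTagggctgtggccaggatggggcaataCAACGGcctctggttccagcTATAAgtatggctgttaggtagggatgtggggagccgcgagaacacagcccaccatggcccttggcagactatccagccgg
Prtn3, chr10:79879557-79879716, plus strand: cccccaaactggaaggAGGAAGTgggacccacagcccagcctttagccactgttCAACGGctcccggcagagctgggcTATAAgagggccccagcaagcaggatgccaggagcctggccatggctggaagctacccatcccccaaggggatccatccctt

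For the other 5 promoters with the motif, the bases around AGGAAGT are shown to let the flanks be compared, with the motif in capitals and each sequence read along the strand of its gene. In Ctsc the motif lies on the opposite strand and so reads as its reverse complement.
Mpo, chr11:87793544-87793584, plus strand: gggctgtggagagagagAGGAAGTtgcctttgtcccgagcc
Ctsg, chr14:56102757-56102797, minus strand: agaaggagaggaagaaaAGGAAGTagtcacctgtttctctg
Fcnb, chr2:28084958-28084998, minus strand: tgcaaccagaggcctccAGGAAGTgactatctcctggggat
Cst7, chr2:150570335-150570375, plus strand: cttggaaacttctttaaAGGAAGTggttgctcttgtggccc
Ctsc, chr7:88277917-88277957, plus strand: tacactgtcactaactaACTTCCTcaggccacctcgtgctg

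The motif begins between 63 and 103 bases before the start in Cst7, Elane, Prtn3 and Fcnb, and farther away in Ctsc (-151), Ctsg (-206) and Mpo (-223). TTNNGNAA, a loose form of the C/EBP site, was found in 3 of the 8 promoters against 40.7% of all promoters, CAACNG in 4 of 8 against 35%, TGNGGT, a RUNX core, in 3 of 8 against 45.8%, and TATAA in 4 of 8 against 24.9%. A match of letters is a description of the sequence, and binding was not measured in these libraries. Promoters with AGGAAGT belong to genes with a difference near 0 (Mpo) as well as to the gene with the largest one (Elane).

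Mpo (ENSMUSG00000009350, chromosome 11, 87607083 to 87617915) encodes myeloperoxidase, which makes hypochlorous acid and is the hallmark enzyme of primary granules. It had 3417 and 2683 CPM in the MIGR1 libraries and 3362 and 2238 CPM in the dChaf1b libraries. The groups overlapped, since dChaf1b replicate 1 lay between the controls in CPM. The log2 fold change was -0.08 (95% interval -0.92 to 0.76, adjusted p = 0.956), and its sign turned to 0.27 without dChaf1b replicate 2 and to 0.11 without MIGR1 replicate 1. Mpo shares 512 of its 3424 exonic bases with Gm11505, an antisense transcript on the opposite strand. Gm11505 had at most 59 counts in a library against at least 41335 for Mpo.

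Elane, the gene of neutrophil elastase, showed the largest difference. Elane (ENSMUSG00000020125) had 1739 and 2369 CPM in the MIGR1 libraries and 1229 and 751 CPM in the dChaf1b libraries. Both deleted libraries were below both controls, a pattern seen on this side for 22.9% of all genes. Its log2 fold change came to -1.0 (standard error 0.36, 95% interval -1.85 to -0.15, unadjusted p = 0.0264, adjusted p = 0.319). It remained below 0 with each library left out, between -1.53 and -0.61. The lowest and highest of these came from the fits without dChaf1b replicate 1 and without dChaf1b replicate 2. There the single remaining deleted library was assumed to vary like the controls, so adjusted p from these fits is not given. Adjusted p was 0.118 in edgeR's exact test, 0.109 in the likelihood ratio test and 0.0704 in DESeq2. Per kilobase of exon, Elane was the most abundant of the 10 genes, with 2232 CPM per kb in the controls and 1076 after deletion, and ranked 13 among the 15049 tested genes with a known length.

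Prss57, which encodes the serine protease NSP4 with arginine specificity, was the least abundant of the 10 genes, with 22.7 CPM per kb in the controls and 11.4 after deletion. Prss57 (ENSMUSG00000020323) had 59.3 and 70.1 CPM in the MIGR1 libraries and 40.4 and 24.2 CPM in the dChaf1b libraries. As for Elane, the groups did not overlap and dChaf1b replicate 2 was the lower of the deleted libraries. The log2 fold change was -0.95 (standard error 0.31, 95% interval -1.68 to -0.22, unadjusted p = 0.0174, adjusted p = 0.277) and lay between -1.49 and -0.55 with each library left out. The lowest and highest of these came from the fits without dChaf1b replicate 1 and without dChaf1b replicate 2, each with a single deleted library. With all 4 libraries the adjusted p was 0.151 in edgeR's exact test, 0.142 in the likelihood ratio test and 0.117 in DESeq2. Of the 2843 exonic bases of Prss57, 1157 overlap Fstl3 on the opposite strand. Fstl3 had between 20 and 56 counts in a library against 447 to 1780 for Prss57.

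Prtn3 and Ctsg encode proteinase 3 and cathepsin G, the former a close neighbour of elastase in sequence and position, the latter a protease of chymotrypsin type. Prtn3 (ENSMUSG00000057729) had 909 and 832 CPM in the MIGR1 libraries and 845 and 471 CPM in the dChaf1b libraries. Its log2 fold change was -0.35 (95% interval -1.17 to 0.47, adjusted p = 0.759), between -0.96 without dChaf1b replicate 1 and 0.09 without dChaf1b replicate 2. For Prtn3 the groups overlapped and the difference rested on dChaf1b replicate 2. Ctsg (ENSMUSG00000040314) had 1172 and 1124 CPM in the MIGR1 libraries and 1209 and 756 CPM in the dChaf1b libraries. The log2 fold change of Ctsg was -0.18 (95% interval -0.94 to 0.59, adjusted p = 0.881), and dChaf1b replicate 1 was its highest library. Per kilobase of exon in the controls, Ctsg (1146 CPM per kb) stood between Elane and Mpo (891 CPM per kb), and Prtn3 had 503 CPM per kb. After deletion the order was kept, with 980 CPM per kb for Ctsg, 818 for Mpo and 380 for Prtn3, and the means of Elane and Ctsg differed by less than the spread between the deleted libraries.

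The log2 fold changes of the serine protease genes thus ranged from -1.0 for Elane to -0.18 for Ctsg. Their intervals overlapped, and the fit did not test whether these genes differed from each other. The ratio of Elane to Prtn3, per kilobase of exon, was 3.60 and 5.36 in the MIGR1 libraries and 2.74 and 3.0 in the dChaf1b libraries. The ratio of Elane to Mpo was 1.89 and 3.29 in the controls, against 1.36 and 1.25 in the deleted libraries. The ratio of Elane to Ctsg was 1.62 and 2.30 against 1.11 and 1.08. In each of these ratios, which all have Elane on top, both deleted libraries were below both controls. Elane had the largest difference of the primary granule genes, so these ratios largely restate that difference. Ratios of genes outside the primary granule list were not computed, so no background share stands beside them. For each ratio with Elane on top, the exact two-sided permutation test gave p = 0.333. This is the smallest value that 2 against 2 libraries allow, so the test could not separate the groups. In the ratio of Prtn3 to Ctsg the deleted libraries were also below the controls, with the same exact permutation p, at 0.449 and 0.428 in the controls, against 0.405 and 0.360 in the deleted libraries.

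The proteases depend on an activator and inhibitors, and these genes had smaller differences than Elane and Prss57. Ctsc (ENSMUSG00000030560, chromosome 7, 95426595 to 95459398) encodes cathepsin C, the dipeptidyl peptidase that activates all 4 proteases. Ctsc had 179 and 284 CPM in the MIGR1 libraries and 188 and 171 CPM in the dChaf1b libraries. The controls of Ctsc differed from each other by 1.58-fold, more than either deleted library from MIGR1 replicate 1, and the log2 fold change was -0.33 (95% interval -0.96 to 0.29, adjusted p = 0.688). Cst7 (ENSMUSG00000068129, chromosome 2, 150396151 to 150404680) encodes cystatin F, an inhibitor of cathepsin C. Cst7 had 152 and 144 CPM in the MIGR1 libraries and 120 and 89.4 CPM in the dChaf1b libraries. The groups of Cst7 did not overlap, and its log2 fold change was -0.46 (95% interval -1.04 to 0.12, adjusted p = 0.523). Serpinb1a (ENSMUSG00000044734, chromosome 13, 32933961 to 32943054) encodes the serpin that inhibits elastase, proteinase 3 and cathepsin G in the cytosol. Serpinb1a had 617 and 661 CPM in the MIGR1 libraries and 496 and 465 CPM in the dChaf1b libraries. Its replicates differed by 1.07-fold in each group and its groups did not overlap, with a log2 fold change of -0.38 (95% interval -0.92 to 0.17, adjusted p = 0.579). Of the 31-base stretches in the exons of Serpinb1a, 12.8% also occur elsewhere in the genome, against at most 3.17% for the other 9 genes, so its counts are less certain. The summed level of the 4 proteases relative to Serpinb1a, per kilobase, was 11.4 and 12.4 in the controls. It was 11.9 in dChaf1b replicate 1 and 7.73 in dChaf1b replicate 2, with p = 0.667 in the exact permutation test.

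Ms4a3 and Fcnb are genes of the promyelocyte and granulocyte-macrophage progenitor stage. Ms4a3 (ENSMUSG00000024681, chromosome 19, 11703987 to 11715341) had 659 and 559 CPM in the MIGR1 libraries and 618 and 343 CPM in the dChaf1b libraries. Its log2 fold change was -0.29 (95% interval -1.11 to 0.53, adjusted p = 0.805), and without dChaf1b replicate 2 it was 0.15. Fcnb (ENSMUSG00000026835, chromosome 2, 27931898 to 27940405), the gene of ficolin B, a lectin that starts the complement cascade, had 168 and 313 CPM in the MIGR1 libraries and 177 and 167 CPM in the dChaf1b libraries. For Fcnb, 3 libraries lay together and MIGR1 replicate 2 stood above them. The log2 fold change of -0.45 (95% interval -1.16 to 0.26, adjusted p = 0.616) became 0.05 without that library. The genes thus differed in which libraries stood apart. Prtn3, Ctsg and Ms4a3 were low in dChaf1b replicate 2 alone, and Mpo was low there with MIGR1 replicate 2 next. Fcnb and Ctsc were high in MIGR1 replicate 2 alone. Elane, Prss57, Cst7 and Serpinb1a were lower in both deleted libraries, 4 of 10 genes against 22.9% of all genes tested.

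**Figure D2:**
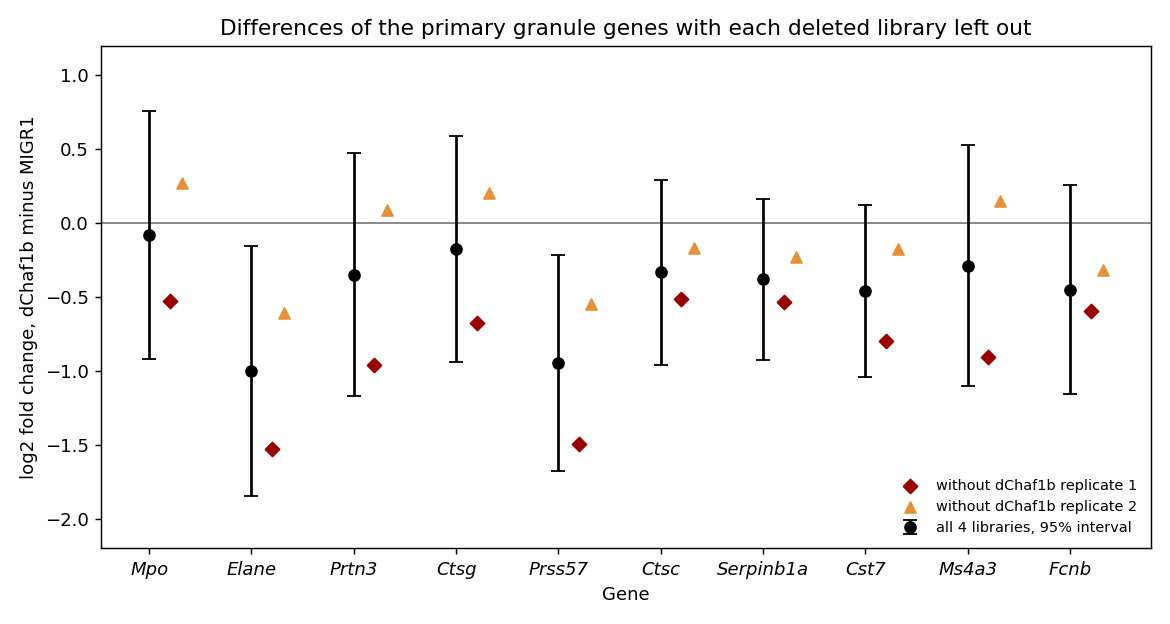
Log2 fold change (y axis, dChaf1b minus MIGR1) of each primary granule gene (x axis) from all 4 libraries (black, with the 95% interval) and with 1 dChaf1b library left out (coloured). The intervals of Elane and Prss57 lie below 0, and without dChaf1b replicate 2 the points of Mpo, Prtn3, Ctsg and Ms4a3 lie above 0.

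The genes around the proteases were read in the same fit to see whether the difference extended along the chromosome. Within 50 kb of Prss57, Prtn3 or Elane, 13 other genes passed the filter, of which 7 were lower and 6 higher in dChaf1b libraries, with a median log2 fold change of -0.05. None was called, and 4 had an unadjusted p under 0.05. BC005764, which overlaps 159 exonic bases of Prtn3 on the opposite strand, had 95.3 and 126 CPM in the MIGR1 libraries and 58.5 and 55.1 CPM in the dChaf1b libraries (log2 fold change -0.93, adjusted p = 0.160). Kiss1r (1.64, adjusted p = 0.173), C030046I01Rik (0.67, adjusted p = 0.217) and Hcn2 (1.61, adjusted p = 0.328) differed in the other direction. Cfd, the gene of complement factor D next to Elane, had between 0.722 and 1.35 CPM and a log2 fold change of -0.05. The remaining neighbours had differences in both directions. Polrmt had -0.54, Palm -0.46, Ptbp1 -0.45, E130317F20Rik -0.83, Rnf126 -0.13, Med16 0.04, Fstl3 0.15 and Arid3a 0.33. Within 50 kb of Ctsg on chromosome 14, Mcpt8, a basophil protease gene, had a log2 fold change of 0.09. Gzme, a granzyme gene, had 1 and 0 counts in the controls, against 17 and 16 in the deleted libraries, with an unadjusted p of 0.00169 and an adjusted p of 0.118.

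**Figure D3:**
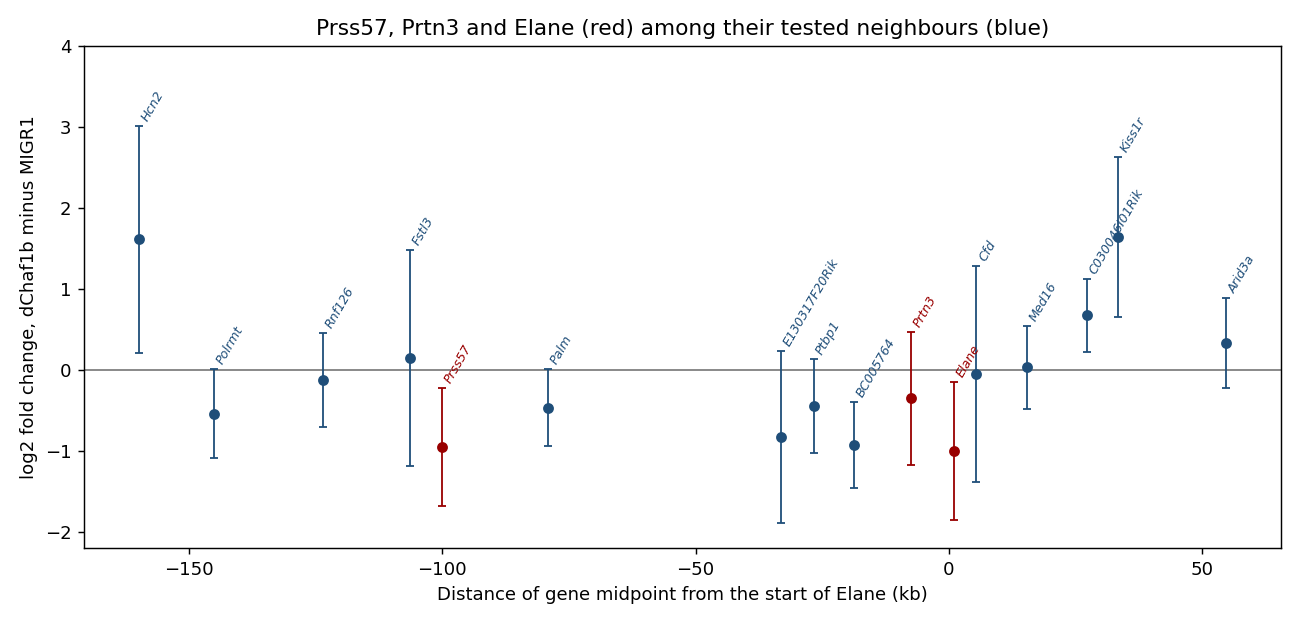
Log2 fold change (y axis, dChaf1b minus MIGR1, bars for 95% intervals) of Prss57, Prtn3 and Elane (red) and of 13 tested neighbours (blue), placed by the distance of each gene's midpoint from the start of Elane in kilobases (x axis). Genes on the right of Elane lie near or above 0, while BC005764, left of Prtn3, has a log2 fold change of -0.93.

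The primary granule genes were set beside other lists of the granule pathway. Of 22 other azurophil granule and lysosome genes, 20 were tested. None was called, 13 were higher and 7 lower, and the median log2 fold change was 0.13. Ctsd, the gene of cathepsin D, was the only gene of this list with an unadjusted p under 0.05. It had 613 and 567 CPM in the MIGR1 libraries and 1146 and 779 CPM in the dChaf1b libraries (log2 fold change 0.75, adjusted p = 0.373). Of 19 genes of granule packaging, protease inhibition and release, 17 were tested and none was called, with 11 higher, 6 lower, a median of 0.11 and 1 gene, Slpi, with an unadjusted p under 0.05. Slpi, the gene of secretory leukocyte protease inhibitor, which blocks elastase and cathepsin G, had 109 and 112 CPM in the controls, against 271 and 232 CPM in the deleted libraries (log2 fold change 1.22, standard error 0.23, adjusted p = 0.0840). Slpi thus differed in the direction opposite to Elane, with both deleted libraries above both controls.

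Most secondary and tertiary granule genes, which follow the primary granule genes in maturation, had the opposite sign. Their summed level did not separate the groups. It was 51737 and 60287 CPM in the MIGR1 libraries and 78080 and 58446 CPM in the dChaf1b libraries. The highest sum was in dChaf1b replicate 1, and values without that library are not given for this list. Of the 14 genes, all tested, 13 were higher and 1 lower, with a median of 0.64. In 9 of 14, both deleted libraries were above both controls, against 21.4% of all genes, and 6 of 14 had an unadjusted p under 0.05 on the higher side, against 9.15%. Only Mmp25, the gene of a membrane-bound metalloprotease, was called, and 0.37% of all genes were called higher. It rose from 34.0 and 26.6 CPM to 125 and 96.4 CPM (log2 fold change 1.91, standard error 0.27, adjusted p = 0.0429). Retnlg (2.08, adjusted p = 0.0639) and Mmp9 (2.74, adjusted p = 0.0849) had larger differences that missed the threshold. The difference between the primary and the secondary lists was not tested.

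**Figure D4:**
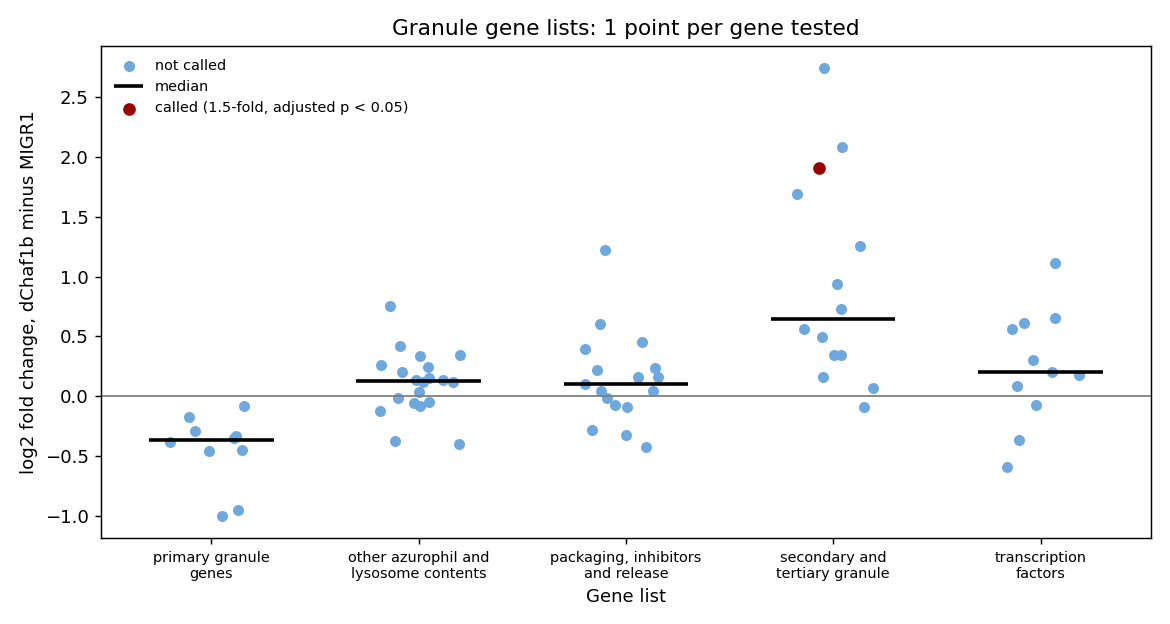
Log2 fold change (y axis, dChaf1b minus MIGR1) of every tested gene of 5 lists (x axis), 1 point per gene, with the median as a black bar. All 10 primary granule genes lie below 0 with a median of -0.36, 13 of 14 secondary and tertiary granule genes lie above 0, and Mmp25 is the only gene called.

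Of 11 transcription factor genes of the promyelocyte, none was called, 8 were higher and 3 lower, and the median was 0.20. Myb, whose product maintains progenitors and activates Elane and Mpo, had 475 and 492 CPM in the MIGR1 libraries and 298 and 335 CPM in the dChaf1b libraries (log2 fold change -0.59, adjusted p = 0.313). Its groups did not overlap. Cebpb (1.12, adjusted p = 0.140) and Cebpd (0.56, adjusted p = 0.404) were the others with an unadjusted p under 0.05, and both had higher levels in both deleted libraries. Cebpa, Cebpe and Gfi1, which act at the promyelocyte stage, had log2 fold changes of 0.20, -0.07 and -0.37, with adjusted p from 0.675 to 0.953. The 5 tested genes whose profile over the 4 libraries was closest to the median profile of the primary granule genes were Rps15, Rp9, Spag7, Slc39a3 and Ewsr1, with Euclidean distances between 0.0434 and 0.0907 on the log2 scale among 9285 genes compared. The low value in dChaf1b replicate 2 that all 5 shared follows from how they were chosen. None of the 5 is a granule gene. Of the 10 genes themselves, Cst7 was closest to their median profile (0.0422) and Fcnb farthest (0.703).

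Marker lists of other cell types moved between the libraries as well, and their part in the results above was not tested. Eosinophil genes, which belong to another granulocyte lineage, summed to 445 and 941 CPM in the MIGR1 libraries and 353 and 220 CPM in the dChaf1b libraries, so that the lowest sum was again in dChaf1b replicate 2. Of the 8 eosinophil markers 7 were lower, with a median log2 fold change of -1.05, and Epx (-1.76, adjusted p = 0.0696), Prg3 (-1.70, adjusted p = 0.149) and Prg2 (-1.14, adjusted p = 0.349) had an unadjusted p under 0.05. Mast cell and basophil genes summed to 844 and 538 CPM in the controls, against 737 and 735 CPM in the deleted libraries. Among them Ms4a2 was lower in both deleted libraries (-0.98, adjusted p = 0.136) and Tpsb2 higher (3.18, adjusted p = 0.224). Tpsb2 had 0.528 and 0.0787 CPM in the controls, the second below the floor of 3 counts, against 1.10 and 4.55 CPM. Monocyte and macrophage genes summed to 968 and 1868 CPM in the controls, against 2008 and 1026 CPM in the deleted libraries, a range that did not follow the groups. Of these, Cx3cr1 (1.36, adjusted p = 0.262), Fcgr1 (1.18, adjusted p = 0.286) and Adgre1 (0.75, adjusted p = 0.379) had an unadjusted p under 0.05. Megakaryocyte genes summed to 101 and 100 CPM in the controls, against 153 and 267 CPM in the deleted libraries, the highest value being in dChaf1b replicate 2. Pf4 (1.40, adjusted p = 0.0986), Vwf (1.56, adjusted p = 0.130) and Ppbp (1.66, adjusted p = 0.172) led this list. HSPC markers summed to 433 and 384 CPM in the controls, 353 CPM in dChaf1b replicate 1 and 523 CPM in dChaf1b replicate 2, the library with the lowest primary granule levels. Among them Flt3 rose (2.09, adjusted p = 0.0383), while Cd34 (0.57, adjusted p = 0.325) and Mecom (1.19, adjusted p = 0.356) did not pass the test. Erythroid, lymphoid and dendritic cell markers summed to at most 83.0, 253 and 25.7 CPM in a library, and none of them was called. Those with an unadjusted p under 0.05 included Hba-a1 (1.80, adjusted p = 0.229), Il7r (1.25, adjusted p = 0.339), Itgax (1.68, adjusted p = 0.115) and Siglech (1.67, adjusted p = 0.408). No gene of any marker list was at 0 in every library.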

How the data were processed

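RNA-seq of 4 HSPC libraries was analysed. The authors aligned reads of ribosome-depleted, stranded total RNA libraries to mm9 (STAR) and counted reads on each gene (HTSeq-count), and deposited the raw counts without normalization. The annotation release and the strand setting of the counting are not given in the sources used here. Of 43629 identifiers, 33068 were named from the NCBIM37 annotation. Reads outside genes (35.8% to 48.3% of uniquely aligned reads) or ambiguous between genes (2.05% to 2.76%) were left out. Of 141 listed genes, 140 matched 1 identifier and Glb1 matched 2 and was left out.

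Genes were filtered by edgeR's expression filter (minimum count 10), normalized by TMM (factors 0.925 to 1.06) and tested by glmQLFit and glmQLFTest (edgeR 4.0.16, limma 3.58.1, R 4.3.3) without a covariate. Standard errors are the log2 fold change divided by the root of F, and 95% intervals use the t distribution with the fit's degrees of freedom (median 7.68). The fits were tested on 3 simulated datasets. Replicates differed by more than sampling noise (chi-square per degree of freedom 44.4 and 66.9). As no source says that they came from separate animals, p-values measure only the spread between these libraries. The dChaf1b libraries did not come from the same animal, given their Xist and Y-linked counts (7905 and 3 against 23 and 5805). The spread between them includes this difference in sex-linked RNA. The floor of 3 counts was 0.118 to 0.162 CPM. Alternatives were DESeq2's size factors, library size, upper quartile, TMM without the 10 genes, other filters, edgeR's exact and likelihood ratio tests, DESeq2 1.42.0, a replicate block, other thresholds and each library left out.

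The primary granule genes and all lists were chosen with earlier results of these data known. The genes named are Chaf1b, the 10 genes, every gene called in a list with up to 3 of the lowest unadjusted p under 0.05, tested neighbours within 50 kb, and the 5 genes of closest profile with a mean of at least 10 CPM. Cebpa, Cebpe, Gfi1 and the promoter motifs were chosen after their values or sequences were seen, as were the antisense genes. Single values of some listed genes are not reported here.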

Additional observations from a re-analysis of the deposited data

How the results depend on the processing

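The replicate numbers come from the labels, which do not say that same-numbered libraries share an animal. MIGR1 replicate 1 (26 Xist and 7383 Y-linked counts) and dChaf1b replicate 1 (7905 and 3) did not come from the same animal. The deviations of same-numbered libraries from the group means were nearly uncorrelated (r = 0.0133 across genes). With the replicate block, 14 genes were called higher and 0 lower, 0 primary granule genes were called, and their median log2 fold change was -0.39. With no block, 61 genes were higher, 1 was lower and 0 of the 10 were called. The other numbers of genes called higher and lower were 537 and 37 with edgeR's exact test, 583 and 40 with its likelihood ratio test, 472 and 34 with DESeq2, 808 and 79 with no filter on low counts, 3 and 0 with 10 counts in every library, 0 and 0 at 2-fold with an adjusted p under 0.01, and 27 higher with DESeq2's size factors and 30 with library size. Without a low-count filter, where 31399 genes were tested, 2 primary granule genes were called, Elane (adjusted p = 0.0377) and Prss57 (0.0399). With each library left out in turn, between 110 and 339 genes were higher and between 6 and 41 lower, and between 0 and 2 of the 10 were called, the 2 being Elane and Prss57 without dChaf1b replicate 1. The median log2 fold change of the 10 genes then lay between -0.74 without dChaf1b replicate 1 and -0.17 without dChaf1b replicate 2. In the same fits the log2 fold change ranged from -0.52 to 0.27 for Mpo, from -0.96 to 0.091 for Prtn3, from -0.68 to 0.21 for Ctsg, from -0.91 to 0.15 for Ms4a3, from -0.83 to 0.049 for Fcnb and from -0.62 to 0.021 for Ctsc. Elane, Prss57, Serpinb1a and Cst7 stayed below 0 in all 15 settings. In the 10 other alternatives all 10 genes stayed below 0. The causes of these changes were not tested. The share of counts on the 10 genes in dChaf1b relative to MIGR1 libraries was 0.760 of the counts on genes and 0.773 of all uniquely aligned reads, where dChaf1b replicate 1 (0.509%) was above the controls (0.505% each) and dChaf1b replicate 2 (0.271%) below them. Each of the 10 genes had at least 447 counts in every library, far above the floor of 3 counts.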
